A study of Mus musculus with 4 samples.

Results

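Interferon-high microglia were brain macrophages with a high content of interferon-induced transcripts, read cell by cell in mouse hemispheres after stroke. They were picked from the UMI counts themselves (a UMI, or unique molecular identifier, marks 1 captured transcript). A cell counted as microglia with at least 3 UMIs over P2ry12, Tmem119, P2ry13, Gpr34, Olfml3 and Fcrls and 0 UMIs of Cd3e, Cd3g and Trac. It counted as interferon-high when Ifit1, Ifit2, Ifit3, Isg15, Rsad2, Oasl2, Irf7 and Usp18 together reached at least 3 UMIs and at least 0.1% of its UMIs. Of 55902 cells kept in the series, 2290 met both conditions, and 22587 other microglia met the first alone. Because these 8 interferon genes chose the cells, everything that sets the cells apart from other microglia is given as a description, with no test.

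All mice were wild type, had an ischemic stroke, received hydrogel microspheres in the infarct cavity at day 5 and gave the stroke-side hemisphere at day 14. The microspheres carried astrocyte-derived extracellular vesicles (EVs) or were plain, and the 4 labels are IL-4 C1q EV+MAPS, then IL-1a TNFa C1q EV+MAPS, then UT EV+MAPS and last MAPS. These groups are written IL-4/C1q EV, IL-1a/TNFa/C1q EV, UT EV and MAPS, and each was 1 library. Chips were loaded for about 8000 cells per library, and 13076 to 15138 barcodes are in the files. The labels give neither the number of animals per library nor their age, and healthy mice named in the protocol were not analysed here. With 1 library per group a group and its library cannot be told apart, and every interval below is a 95% interval for counting error only.

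Type I interferons are cytokines that cells release on sensing foreign or misplaced nucleic acid. They bind the receptor pair Ifnar1 and Ifnar2, activate the kinases Jak1 and Tyk2, and send transcription factors, Stat2 and Irf9 among them, to a promoter motif called the interferon-stimulated response element (ISRE). The genes behind that motif include antiviral effectors, nucleic acid sensors, immunity GTPases, antigen presentation genes and chemokines. Microglia that carry this programme are known from ageing, demyelinated and injured brain.

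The ISRE core was visible in promoters of genes that chose the cells and of genes that were higher in them. The promoters of Ifit3 (chr19:34583279-34583578, plus strand), Isg15 (chr4:156200769-156201068, minus strand), Cxcl10 (chr5:92348840-92349139, minus strand) and Gbp2 (chr3:142620413-142620712, plus strand) are printed because both kinds are among them. They are RefSeq sequences of build GRCm38.p6, read 5′ to 3′ on the gene's strand, with capitals marking the core letters GAAA, any 2 bases, GAAA, or their reverse complement.
Ifit3: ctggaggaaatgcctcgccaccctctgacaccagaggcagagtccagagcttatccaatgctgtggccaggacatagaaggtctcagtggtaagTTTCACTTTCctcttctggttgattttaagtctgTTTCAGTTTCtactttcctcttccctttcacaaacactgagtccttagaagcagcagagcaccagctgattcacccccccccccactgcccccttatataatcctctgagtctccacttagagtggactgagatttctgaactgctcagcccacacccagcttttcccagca
Isg15: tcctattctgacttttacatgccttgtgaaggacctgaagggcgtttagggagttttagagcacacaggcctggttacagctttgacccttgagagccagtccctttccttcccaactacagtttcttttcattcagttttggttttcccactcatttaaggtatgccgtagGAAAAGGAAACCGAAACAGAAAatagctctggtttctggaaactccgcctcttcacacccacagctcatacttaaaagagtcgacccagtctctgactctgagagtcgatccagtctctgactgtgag
Cxcl10: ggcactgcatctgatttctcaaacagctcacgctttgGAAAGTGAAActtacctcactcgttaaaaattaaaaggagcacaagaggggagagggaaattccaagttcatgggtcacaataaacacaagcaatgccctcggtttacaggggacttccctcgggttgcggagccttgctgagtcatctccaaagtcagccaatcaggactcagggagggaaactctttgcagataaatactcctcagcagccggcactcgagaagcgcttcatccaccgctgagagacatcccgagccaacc
Gbp2: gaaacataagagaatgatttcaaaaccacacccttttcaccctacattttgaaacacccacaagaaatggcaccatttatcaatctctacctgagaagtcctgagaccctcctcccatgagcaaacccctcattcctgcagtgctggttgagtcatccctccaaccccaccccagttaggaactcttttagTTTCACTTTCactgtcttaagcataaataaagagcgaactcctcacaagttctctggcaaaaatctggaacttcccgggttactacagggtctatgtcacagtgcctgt
The match began 156 and 122 bases before the start site in Ifit3, 78, 72 and 66 bases before it in Isg15 as overlapping matches, 213 bases before it in Cxcl10 and 59 bases before it in Gbp2. Of the 8 interferon genes, 7 had an entry in the promoter table (Usp18 did not), and 4 of the 7 held the letters: Ifit1, Ifit3, Isg15 and Rsad2. The letters were held by 3.99% of the 27025 genes listed there, and by 3.44% of its 32851 promoters of that length. A match is a stretch of letters and does not show that a factor binds there.

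Before the results, 3 features of the libraries bear on them. The EV libraries held 45691141 to 52552617 UMIs in all, against 81189155 in MAPS, and the median interferon-high cell held 2990 to 3925 UMIs in the EV libraries, against 6751.5 in MAPS. In IL-1a/TNFa/C1q EV no barcode held fewer than 1233 UMIs, while the other libraries reached down to 500. Pairs of libraries shared 43 to 64 cell barcodes. Summed UMIs of interferon-high cells, on which all levels below rest, were 6204083 in IL-4/C1q EV, 649240 in IL-1a/TNFa/C1q EV, 1254037 in UT EV and 1682021 in MAPS.

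Interferon-high cells were most frequent among the microglia of IL-4/C1q EV. They were 1673 of 5837 microglia there, or 28.7% (27.5 to 29.8%, Clopper-Pearson). In IL-1a/TNFa/C1q EV they were 156 of 6182, or 2.52% (2.15 to 2.95%). In UT EV they were 249 of 5516, or 4.51% (3.98 to 5.10%), and in MAPS 212 of 7342, or 2.89% (2.52 to 3.30%). The intervals of IL-1a/TNFa/C1q EV and MAPS overlap, while UT EV lies above both and IL-4/C1q EV far above all. The place of UT EV above MAPS did not hold without Isg15 or without cells that carry other markers, as given below. Set against IL-1a/TNFa/C1q EV, the share in IL-4/C1q EV was 11.4 times as high (9.63 to 13.5). The ratio was 6.35 against UT EV (5.56 to 7.28) and 9.93 against MAPS (8.60 to 11.5). No replicate stands behind these ratios.

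IL-4/C1q EV also stood first at equal depth. With each cell thinned to 3000 UMIs and shallower cells left out (3477 of IL-4/C1q EV, 3663 of IL-1a/TNFa/C1q EV, 2827 of UT EV and 830 of MAPS), the shares were 43.1%, 4.61%, 8.33% and 3.93% in that order of libraries, and the intervals of IL-1a/TNFa/C1q EV and MAPS again overlapped. Among those thinned cells, 19.5% of IL-4/C1q EV microglia had 0 UMIs of the 8 genes, against 77.4% in IL-1a/TNFa/C1q EV, 65.5% in UT EV and 79.5% in MAPS. Cells with 11 or more were 5.00%, 0.635%, 0.967% and 0.753%. In IL-4/C1q EV both ends of the distribution thus stood apart from those of the other libraries.

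**Figure D1:**
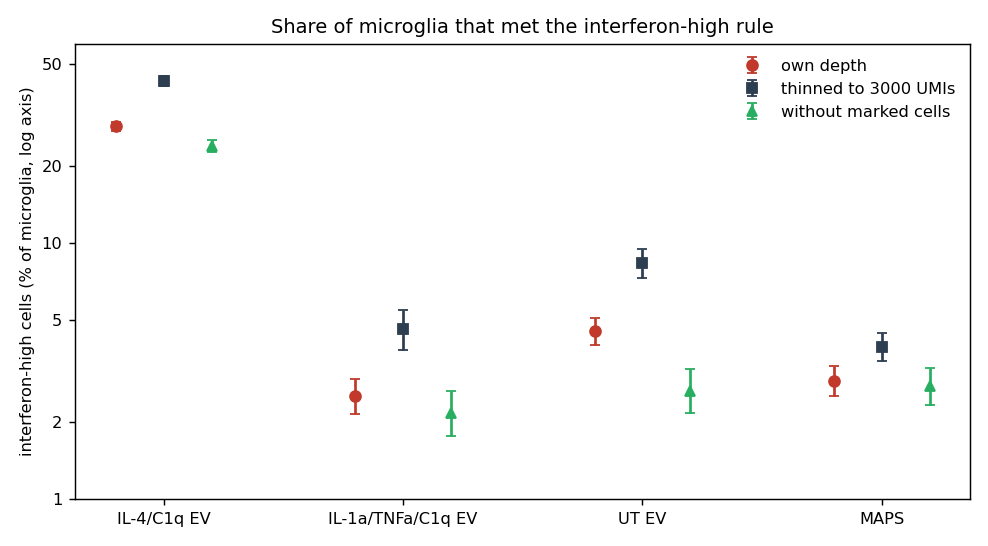
Interferon-high cells as a percentage of microglia (log axis) in each library, at the cells' own depth, thinned to 3000 UMIs per cell, and without cells that carry markers of other cell types. Points are single libraries and bars are exact 95% counting intervals. IL-4/C1q EV lies between 24.0% and 43.1% under the 3 settings, and every other library lies below 10%.

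The threshold cut through a continuous range. Members with exactly 3 UMIs of the 8 genes, just inside, were 335 in IL-4/C1q EV, 25 in IL-1a/TNFa/C1q EV, 33 in UT EV and 5 in MAPS. Microglia with 2 UMIs, just outside, were 866, 229, 348 and 412. A further 586, 134, 214 and 435 microglia had 3 UMIs or more but less than 0.1% of their total. The median member held 6, 7, 7 and 13 of these UMIs in those libraries, and drew 0.176 to 0.181% of its UMIs from the 8 genes. That median share was nearly the same in each library, and the threshold helps to fix it.

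The 8 genes did not contribute alike. Isg15, a ubiquitin-like protein that is coupled to other proteins in infected cells, gave 52.5% of members' rule UMIs in IL-4/C1q EV, 56.7% in IL-1a/TNFa/C1q EV, 60.2% in UT EV and 16.8% in MAPS. Ifit3, an RNA-binding antiviral protein, was at 385 counts per 1000000 UMIs (CPM) in members of IL-4/C1q EV, 481 in IL-1a/TNFa/C1q EV, 352 in UT EV and 493 in MAPS. In other microglia it was at 61.7, 8.88, 11.2 and 9.06 CPM in the same libraries. As Ifit3 is one of the genes that set members apart, the rule shapes both levels and nothing is read from them. Ifit2, of the same family, and Rsad2, which makes a chain-terminating nucleotide, were at 139.5 to 196 and 95.3 to 169 CPM in members of the EV libraries. In MAPS members they were at 527 and 405 CPM. Irf7, the factor that amplifies interferon production, was at 171, 131 and 137 CPM in members of the EV libraries and 317.5 in MAPS. Usp18, which dampens receptor signalling, was at 72.5, 64.7, 62.2 and 167 CPM. As these genes are in the rule too, it shapes their levels and nothing is read from the differences. A member of MAPS had more of the 8 genes at once, and its cells were the deepest. At least 4 of them were detected in 35.4% of IL-4/C1q EV members, 35.3% of IL-1a/TNFa/C1q EV members, 41.4% of UT EV members and 84.4% of MAPS members. Without Isg15 in the rule the shares of microglia that passed were 11.4%, 1.003%, 1.52% and 2.38%, with MAPS above UT EV.

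Transcripts of some other cell types were also raised in these cells. The 5 endothelial markers Cldn5, Flt1, Cdh5, Pecam1 and Ly6c1 summed to 994 CPM in members of IL-4/C1q EV, 1166 in IL-1a/TNFa/C1q EV, 3336 in UT EV and 331 in MAPS, with none at 0. In other microglia they summed to 100, 239, 170 and 122 CPM. At least 3 endothelial UMIs were found in 9.33%, 12.8%, 30.9% and 2.83% of members, against 1.71%, 2.74%, 2.32% and 1.57% of other microglia. Border macrophage markers were 3.96-, 2.06-, 5.42- and 2.34-fold higher in members, and monocyte markers 3.66-, 4.43-, 3.76- and 1.45-fold. Neutrophil markers were 5.33- and 5.08-fold higher in IL-4/C1q EV and IL-1a/TNFa/C1q EV, and 1.04- and 1.12-fold in UT EV and MAPS. These ratios rest on different genes. S100a9 gave 57.8% and 54.9% of members' neutrophil UMIs in IL-4/C1q EV and IL-1a/TNFa/C1q EV, while Csf3r gave 48.6% and 77% in UT EV and MAPS. In MAPS 29.5% of other microglia already held 3 or more neutrophil UMIs. Called doublets, barcodes that look like 2 cells, were 9.80%, 11.5%, 17.7% and 3.77% of members, against 3.51%, 4.05%, 3.34% and 5.08% of other microglia. Oligodendrocyte markers ran the other way, at 0.458, 0.341, 0.293 and 0.404 of the level of other microglia. Astrocyte markers were at 0.680, 1.01, 0.715 and 0.513 of that level, and lesion macrophage markers at 1.12, 0.648, 1.41 and 1.05.

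A stricter set was described beside the main one, chosen after seeing the data. It held microglia with 0 UMIs of the endothelial, pericyte, border macrophage and monocyte markers, fewer than 3 UMIs of S100a8, S100a9 and Retnlg, and no doublet call. It left out more members than other microglia. In IL-4/C1q EV, IL-1a/TNFa/C1q EV, UT EV and MAPS it left out 44.8%, 37.8%, 59.8% and 32.1% of members. Of other microglia it left out 29.7%, 27.5%, 30.2% and 28.8%. It kept 923 members of 3850 microglia in IL-4/C1q EV (24.0%, 22.6 to 25.4%), 97 of 4467 in IL-1a/TNFa/C1q EV (2.17%, 1.76 to 2.64%), 100 of 3778 in UT EV (2.65%, 2.16 to 3.21%) and 144 of 5220 in MAPS (2.76%, 2.33 to 3.24%). The ratio of IL-4/C1q EV over UT EV was then 9.06, and the intervals of the other 3 libraries overlapped. It is called the set without marked cells below.

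Immunity GTPases and an Ifit family member outside the rule led the contrast with other microglia. A gene was called higher when its CPM in members was at least 1.5-fold that in other microglia in each of the 4 libraries, and lower at the inverse. Of 10392 genes with at least 500 UMIs over all microglia, the genes of the rule left out, 198 (1.91%) were higher and 90 (0.866%) lower. Without marked cells 65 (0.625%) were higher and 150 (1.44%) lower, of which 58 and 41 were among the 198 and 90. In single libraries, 6.34%, 19.0%, 16.8% and 4.52% of genes were at least 1.5-fold higher in IL-4/C1q EV, IL-1a/TNFa/C1q EV, UT EV and MAPS, and 5.21%, 15.4%, 11.6% and 19.6% lower. The rule used the same cells and depth differs between them, so nothing is read from these shares. The 15 genes with the largest smallest ratio over the libraries were Ifi47, Iigp1, Ifit3b, Ly6a, Ly6c1, Gm20559, Prom1, Foxq1, Ifi203, Adgrf5, Mndal, Esam, Srarp, Ifi44 and Slc9a3r2. Of these, Ifi47, Iigp1, Ifit3b and Mndal remained called without marked cells.

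Ifi47 (ENSMUSG00000078920), an immunity-related GTPase, was at 31.4, 47.8, 58.2 and 43.4 CPM in members of IL-4/C1q EV, IL-1a/TNFa/C1q EV, UT EV and MAPS, against 5.18, 3.21, 3.86 and 2.56 CPM in other microglia. Iigp1, a GTPase that attacks the vacuole of intracellular parasites, was at 55.5, 67.8, 90.9 and 183 CPM in members, against 10.7, 7.65, 8.32 and 4.18 CPM. Members lay above other microglia in every library for both, and without marked cells the ratios of Iigp1 were 4.97, 12.7, 9.78 and 51.1. Ifit3b, a close copy of Ifit3 whose reads can be split between the 2 genes, had ratios of 4.21, 54.7, 23.2 and 35.9. Its smallest ratio stood in IL-4/C1q EV, where other microglia held 15.8 CPM against 1.61 to 2.96 elsewhere.

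Some leading genes are known from vessels, a reading made after their values were seen and not a fixed list. Ly6c1, itself one of the 5 endothelial markers, had ratios of 9.16, 5.10, 17.6 and 3.98 and is 0 by construction without marked cells. Foxq1 and Esam, both genes of brain endothelium, had ratios of 3.62 to 34.7 and 3.60 to 16.6, and Adgrf5 3.63 to 14.9. None of these remained called without marked cells, where Adgrf5 had 0 UMIs in members of 3 libraries and was called lower. Ly6a, which interferon induces and which vessels also express, was at 296, 314, 698.5 and 128 CPM in members against 63.5, 52.4, 42.0 and 31.3 CPM in other microglia. Without marked cells its ratios were 1.33, 4.21, 3.83 and 7.32. The ratio of each of these genes was highest in UT EV, where the endothelial markers were highest as well, and the part of endothelial RNA was not tested.

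**Figure D2:**
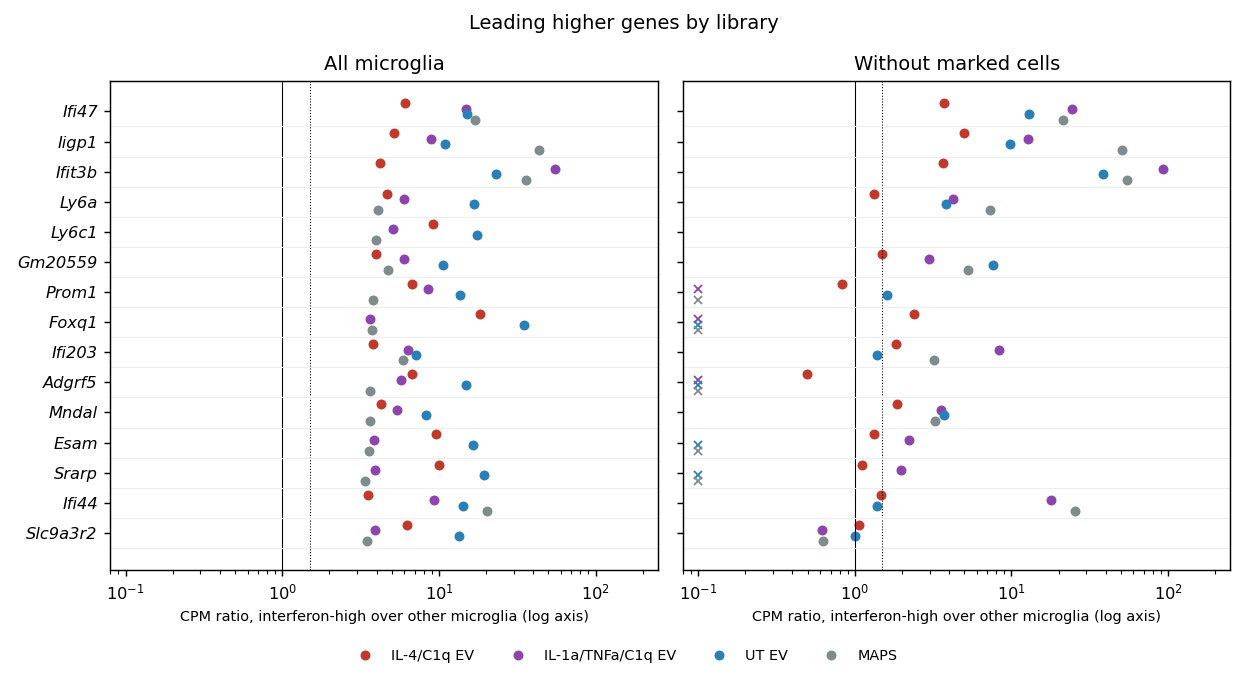
CPM ratio of interferon-high over other microglia (log axis) for the 15 leading higher genes, with 1 point per library, in all microglia (left) and without marked cells (right). The solid line marks 1, the dotted line 1.5, crosses at the left edge mark genes with 0 UMIs in members, and Ly6c1 has no point on the right. Ifi47, Iigp1 and Ifit3b stay right of the dotted line in every library on both sides, while Foxq1, Esam, Adgrf5 and Slc9a3r2 lie left of it in 3 or 4 libraries on the right.

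The 8 leading lower genes included Jchain, Spock3, Fgfr2, Hapln2, C030029H02Rik, Mog and Ank3. Mog encodes a myelin protein, and Hapln2 links matrix at nodes of Ranvier. Mog was at 14.5, 9.24, 9.57 and 16.0 CPM in members of IL-4/C1q EV, IL-1a/TNFa/C1q EV, UT EV and MAPS, against 42.0, 43.6, 51.6 and 46.1 CPM in other microglia. Jchain, which joins antibody chains in plasma cells, was at 3.06, 10.8, 1.60 and 0.595 CPM against 51.6, 76.4, 55.4 and 27.7 CPM. Members lay below other microglia in every library for both. Mog, itself one of the oligodendrocyte markers, was lower alongside the others given above, and the part of other cells' RNA in the result was not tested.

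Interferon genes themselves were rare. Of 10 ligand genes none reached 500 UMIs over all microglia, and Ifna1, Ifna4, Ifna5, Ifnk, Ifne, Ifnl2 and Ifnl3 had 0 UMIs in the 2290 members, which allows a share of up to 0.131% of members with a UMI (3 cells of all members, most of which are of IL-4/C1q EV). Ifna2 had 3 UMIs in 1 member of IL-4/C1q EV and 1 UMI in 1 member of MAPS, and 0 UMIs in cells that were not members. Ifnb1, the type I interferon that macrophages release first, had 168 UMIs in all cells of the series, and 107 of them (63.7%) lay in 12 members. Another 39 lay in 26 other microglia and 22 in 8 cells outside microglia. A few cells held most of it: 6 members had 5 or more, with 28, 18 and 8 UMIs in 3 cells of IL-4/C1q EV, 15 and 13 in 2 cells of IL-1a/TNFa/C1q EV, and 15 in 1 cell of MAPS. These 6 cells gave 0.106 to 3.49% of their UMIs to the 8 genes and held 0 to 71 UMIs of Cxcl10. Of the 12 members with Ifnb1, 5 were in the set without marked cells, none of them from IL-4/C1q EV. Of the 6 members with 5 or more, only 1 was, a cell of IL-1a/TNFa/C1q EV with 15 UMIs, so most of these UMIs lay in marked cells. Cells gated as plasmacytoid dendritic, the classic source of type I interferon, had 0 Ifnb1 UMIs. Ifng, the type II interferon of T and NK cells, had 1, 1, 0 and 3 UMIs in members, against 823, 1597, 1169 and 1930 in cells outside microglia.

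Receptors and kinases did not follow the induced genes. Of 12 genes 11 had enough UMIs and 0 were called in either direction, near the 1.91% higher and 0.866% lower over all genes. Their median log2 ratio was 0.09, beside 0.0035 over all genes. Without marked cells it was -0.01, beside -0.08 over all genes. Ifngr1, a chain of the interferon-gamma receptor, was at 289.6, 263, 234 and 305 CPM in members against 321, 306, 313 and 437 CPM in other microglia. Ifnar1 was at 40.8, 40.1, 55.0 and 93.9 CPM against 32.5, 33.5, 32.9 and 76.3 CPM, and below other microglia in 3 of the 4 libraries without marked cells. Socs1, a feedback inhibitor of the kinases, was at 22.7, 32.3, 37.5 and 19.0 CPM against 18.6, 16.0, 18.8 and 10.7 CPM, above other microglia in each library but by less than 1.5-fold in IL-4/C1q EV.

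Of the transcription factors 3 of 11 were called higher, Stat2 and Nlrc5 among them, and 0 lower. Beside this count and those of the lists below stand the shares over all genes. They were 1.91% higher and 0.866% lower, and 0.625% and 1.44% without marked cells. Stat2, a factor that type I interferon activates, was at 60.4, 43.1, 51.8 and 174 CPM in members against 33.5, 10.3, 16.5 and 29.5 CPM in other microglia. It remained called without marked cells, and Nlrc5, the activator of MHC class I genes, did not. Irf9, which binds DNA together with Stat2, had ratios of 1.10, 1.19, 1.42 and 1.59, and Irf1, which interferon-gamma induces, 1.26, 1.26, 1.52 and 1.69.

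Nucleic acid sensors and adaptors held 10 higher genes of 19 measured and 0 lower (median log2 ratio 1.73), and 9 were called without marked cells. Ifi206 and Ifi211 belong to the HIN-200 family, of which some members sense DNA. Ifi206 was at 53.2, 44.7, 30.3 and 63.0 CPM in members against 15.8, 1.51, 3.01 and 2.38 CPM in other microglia. Ifi211 was at 77.2, 98.6, 75.0 and 77.3 CPM against 24.5, 8.22, 11.6 and 3.36 CPM. Zbp1, a sensor of left-handed nucleic acid that can start cell death, was at 170, 131, 135 and 133 CPM against 75.4, 23.5, 29.0 and 10.8 CPM. For each, members of the 4 libraries differed less than other microglia did, and the other microglia of IL-4/C1q EV were highest among those below the rule. The same threshold chose members in each library and can narrow their levels, so nothing is read from that smaller difference.

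Antiviral effectors were the largest group, with 25 of 40 measured genes higher and 0 lower (median log2 ratio 1.58), and 16 called without marked cells. Oasl1, an inhibitor of Irf7 translation in mice, was at 23.4, 20.0, 31.9 and 111 CPM in members against 7.95, 0.850, 0.952 and 2.31 CPM in other microglia. Mx1, a dynamin-like GTPase against viruses, was at 33.9, 52.4, 25.5 and 184 CPM against 16.4, 2.08, 3.86 and 9.04 CPM. Ifi44 was at 31.4, 6.16, 31.9 and 29.1 CPM against 8.90, 0.661, 2.25 and 1.45 CPM, and was not called without marked cells. Summed over the list, members stood at 10208, 8126, 8151 and 10638 CPM and other microglia at 6042, 2249, 2598 and 3055 CPM. The per-gene median log2 ratio was smallest in IL-4/C1q EV, at 0.64 against 1.94, 1.52 and 2.24 in IL-1a/TNFa/C1q EV, UT EV and MAPS.

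Guanylate-binding proteins and immunity GTPases, which attack intracellular pathogens, had 10 of 10 measured genes higher (median log2 ratio 1.83). Their list has 17 genes, the others had too few UMIs, and 7 were called without marked cells. Gbp2, whose promoter is printed above, was at 32.1, 67.8, 52.6 and 110.0 CPM in members against 10.4, 10.5, 9.82 and 10.6 CPM in other microglia. Gbp3 had ratios of 2.15, 3.97, 5.47 and 4.53. Summed over the list, members stood at 348, 424, 506 and 871 CPM and other microglia at 143, 81.9, 93.6 and 152 CPM. Among other microglia the sum in IL-4/C1q EV was thus above that of the other EV libraries and slightly below that of MAPS.

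MHC class I genes showed a small shift. Of 19 measured, 2 were called higher (H2-T22 and Tap1) and 0 lower, with a median log2 ratio of 0.49 and 0 calls without marked cells. Over all genes 0.625% were higher without marked cells, so nothing is read from those 0 calls. Tap1, which carries peptides to class I molecules, was at 52.4, 52.4, 40.7 and 211 CPM in members against 33.9, 23.2, 26.3 and 74.8 CPM. The list median was 0.30 to 0.46 in the EV libraries and 0.90 in MAPS. MHC class II genes H2-Aa, H2-Ab1 and H2-Eb1 were called higher among 9 measured, with 0 lower and 0 calls without marked cells, again near the share over all genes. H2-Eb1 was at 401, 906, 679 and 232 CPM in members against 181, 443, 345 and 98.0 CPM. Border macrophages carry these genes, their markers were higher in members as given above, and their part in the result was not tested.

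Among chemokines 5 of 15 measured were called higher (Ccl7, Ccl12, Cxcl9, Cxcl10 and Cxcl13) and 0 lower, and 4 without marked cells. Cxcl10, which draws T and NK cells through Cxcr3, was at 417, 847, 562 and 1709 CPM in members of IL-4/C1q EV, IL-1a/TNFa/C1q EV, UT EV and MAPS. In other microglia it was at 149, 191, 186 and 96.3 CPM. Members lay above other microglia throughout, least so in IL-4/C1q EV at 2.79-fold and most in MAPS at 17.7-fold. Ccl12, a ligand of the monocyte receptor Ccr2 in mice, was at 3165, 2788, 2013 and 1562 CPM against 1650, 881, 893 and 214 CPM. Cxcl13, which attracts B cells, was at 5.80, 112, 21.5 and 21.4 CPM against 3.72, 10.4, 2.75 and 2.54 CPM. Ccl7, another monocyte chemokine, had ratios of 5.06, 2.31, 7.17 and 2.68, and lay below other microglia in IL-1a/TNFa/C1q EV and UT EV without marked cells. Of 17 inflammatory mediators Tnfsf10, the death ligand TRAIL, was called higher in both sets, with ratios of 3.40, 4.91, 8.08 and 4.43.

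**Figure D3:**
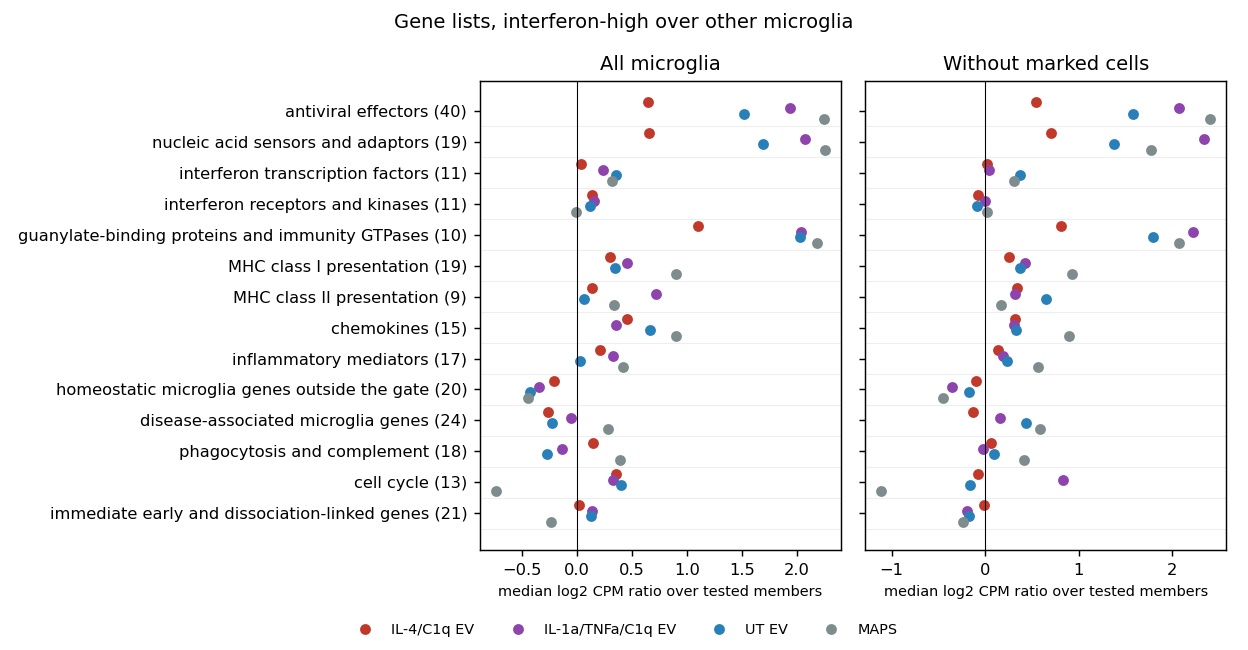
Median log2 CPM ratio of interferon-high over other microglia for each gene list with measured genes (their number in brackets), with 1 point per library, in all microglia (left) and without marked cells (right). Antiviral effectors, sensors and GTPases lie right of 0 in every library on both sides, with IL-4/C1q EV nearest to 0, and homeostatic genes lie left of 0.

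Identity genes of microglia lay somewhat lower in members. Of 20 homeostatic genes outside the rule 0 were called, beside 1.91% higher and 0.866% lower over all genes, so nothing is read from that count. Their median log2 ratio was -0.36, and -0.18 against other microglia weighted to the members' depth. Summed, they stood at 35672, 31565, 32752 and 39932 CPM in members and 41804, 43786, 47355 and 53403 CPM in other microglia. Cst3, an abundant protease inhibitor of microglia, was at 24475, 22848, 23045 and 17707 CPM against 29226, 32706, 34666 and 24941 CPM. Siglech was at 167, 131, 159 and 457 CPM against 204, 163, 213 and 821 CPM. Members thus held microglial transcripts outside the genes that chose them. Among genes of the rule, P2ry12, the purine receptor that guides microglial processes, was at 0.832, 0.637, 0.618 and 0.459 of the other microglia's level, while Fcrls was at 0.870, 0.953, 0.815 and 0.967.

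Disease-associated genes, a set that microglia switch on around plaques and debris, had 0 of 24 called. Their median log2 ratio was -0.26 in IL-4/C1q EV with 2 of 24 genes above 0, -0.05 in IL-1a/TNFa/C1q EV with 11, -0.22 in UT EV with 7 and 0.29 in MAPS with 22. The direction depended on marked cells: without them it was -0.13 with 4 genes above 0, 0.16 with 15, 0.43 with 21 and 0.59 with 24, turned in IL-1a/TNFa/C1q EV and UT EV. Axl, a receptor for dying cells that interferon induces, was at 50.8, 41.6, 44.7 and 244 CPM in members against 39.3, 24.6, 29.2 and 133 CPM. Cst7 was at 89.1, 283, 185 and 766 CPM against 147, 182, 174.5 and 361 CPM. Phagocytosis and complement genes had 0 of 18 called, cell cycle genes 0 of 13 and immediate early genes, which dissociation can switch on, 0 of 21. Over all genes 1.91% were called higher and 0.866% lower. For these lists, disease-associated genes included, 0 calls lies near those shares, and nothing is read from it.

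Ifitm3, Cxcl10 and Ccl12, all outside the rule, were higher in microglia with the highest content of the 8 genes than in those with none. Without marked cells, Ifitm3, which blocks entry of viruses, was at 2829 CPM in IL-4/C1q EV microglia where the 8 genes made up 0.5% or more of UMIs (the top bin) and at 648 CPM in those with 0 UMIs of the 8 genes. The same pair was 2928 and 140.0 CPM in IL-1a/TNFa/C1q EV, 3069 and 152 CPM in UT EV, and 1120 and 61.8 CPM in MAPS. Cxcl10 went with it, at 2565, 3655, 1989 and 7772 CPM in the top bin and 87.6, 188, 177 and 87.4 CPM in cells with 0 UMIs. Ccl12 stood at 11115, 8262, 17594 and 4297 CPM in the top bin and 1403, 932, 906 and 217 CPM in cells with 0 UMIs. The top bin held 43, 15, 7 and 24 cells, so its levels rest on few cells. Cx3cr1, the fractalkine receptor of microglia and outside the rule, was at 1046, 410, 865 and 2032 CPM in the top bin and 1276, 819, 1107 and 3491 CPM in cells with 0 UMIs. In IL-4/C1q EV it did not fall step by step, at 1030, 974 and 1142 CPM in the bins between, nor did it in UT EV and MAPS. In IL-1a/TNFa/C1q EV it did, at 639, 612 and 589 CPM. P2ry12 is plotted with them, but it is one of the genes that gated microglia and nothing is read from it.

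**Figure D4:**
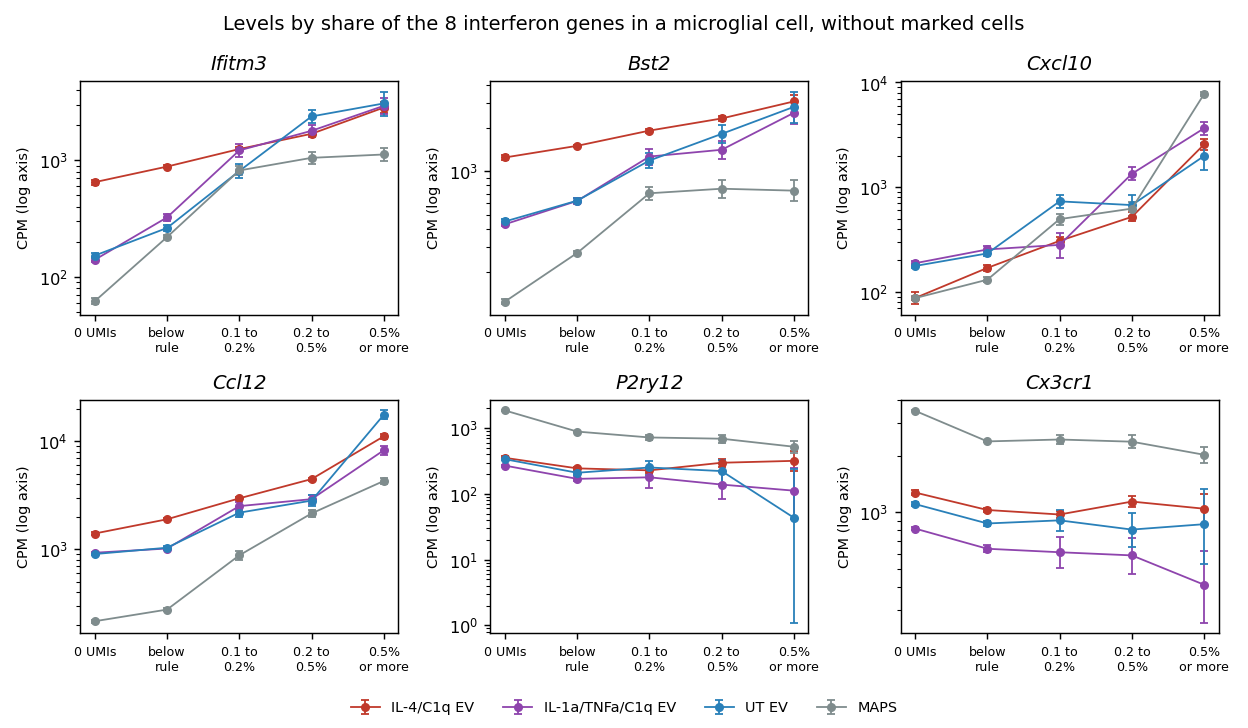
CPM (log axis) of 6 genes in microglia without marked cells, by the share of the 8 interferon genes in a cell, from 0 UMIs through cells below the rule to 3 bins of members. Lines are libraries and bars exact Poisson 95% intervals. Ifitm3, Bst2, Cxcl10 and Ccl12 are higher in the top bin than in cells with 0 UMIs in each library, and the IL-4/C1q EV line starts highest for Ifitm3, Bst2 and Ccl12.

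Microglia of IL-4/C1q EV below the rule carried interferon-induced transcripts as well. Against each other library, 61 of 14109 genes (0.432%) were higher in the other microglia of IL-4/C1q EV with an interval beyond 1.5-fold, and 16 (0.113%) lower. The counts include genes of the rule, among them Ifit3, whose level below the rule is shaped by it. Outside the rule, those leading were Slfn5, Ifi214, Ifit3b, Ifi206 and Ifi213. Slfn5, a Schlafen family member that type I interferon induces, was at 124.5 CPM against 14.3, 26.1 and 26.4 CPM in IL-1a/TNFa/C1q EV, UT EV and MAPS. Even microglia with 0 UMIs of the 8 genes, 24.7%, 76.9%, 66.6% and 69.8% of microglia in the 4 libraries, differed this way. In them Ifitm3 was at 675 CPM in IL-4/C1q EV, 191 in IL-1a/TNFa/C1q EV, 172 in UT EV and 71.4 in MAPS. Bst2, which tethers budding virus, was at 1284, 471, 478 and 127 CPM. Oligodendrocytes of the same libraries had 541, 151, 177 and 30.0 CPM of Ifitm3 and 308, 145, 89.8 and 10.3 CPM of Bst2, and the part of free RNA in either was not tested.

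Few genes set members of IL-4/C1q EV apart from those of every other library. In IL-4/C1q EV 5 of 7076 genes (0.0707%) were higher than in each other library with an interval beyond 1.5-fold, and 7 (0.0989%) lower. Members held 649240 UMIs in IL-1a/TNFa/C1q EV, 1254037 in UT EV and 1682021 in MAPS, and small sums widen the intervals. The same threshold also chose members in each library, so the small counts do not show that members were alike. The other libraries were not compared with each other gene by gene, and members of MAPS differed from those of the EV libraries in several levels given above. Genes higher in IL-4/C1q EV were Camp, Ngp, Ptgds, Lcn2 and Apoc1. Camp and Ngp are granule genes of immature neutrophils, at 114 and 35.1 CPM in IL-4/C1q EV, against 1.54 and 3.08 CPM in IL-1a/TNFa/C1q EV, while UT EV and MAPS had 0 UMIs of either. Neutrophil markers were also higher in members of both these libraries, as given above, and without marked cells 0 genes of 4361 were higher. The 5 leading lower genes were Cxcl13, Itih5, Cox6a2, Igfbp5 and Cst7. Cst7, a cysteine protease inhibitor of activated microglia, was at 89.1 CPM in IL-4/C1q EV and at 283, 185 and 766 CPM in IL-1a/TNFa/C1q EV, UT EV and MAPS. Without marked cells 6 genes (0.138%) were lower, Cst7, Ccl5, Cox6a2, Cd69, C3 and Cxcl10. Ccl5, a T cell chemokine, was there at 347 CPM against 1417, 958 and 857 CPM, and Cxcl10 at 451 CPM against 1155, 791 and 1936 CPM. Without marked cells, the numerous interferon-high cells of IL-4/C1q EV thus held less Cxcl10 and Ccl5 per UMI than those of the other libraries.

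The same interferon threshold was met by cells of other classes, at the highest share in IL-4/C1q EV for each class named here. Classes were gated on their own markers with 0 UMIs of the 6 microglia genes. Endothelial cells passed it in 85.7%, 30.0%, 63.9% and 14.7% of cells, above microglia in each library. Monocytes passed it in 57.6%, 10.5%, 22.5% and 13.7%, and neutrophils in 67.5%, 17.9%, 40.8% and 8.33%, the last on 12 cells. T cells passed it in 23.7%, 6.29%, 9.49% and 12.8%. Oligodendrocytes passed it in 6.71%, 1.92%, 2.01% and 0.292%, and neuroblasts in 4.25%, 1.14%, 1.71% and 0.604%. For neuroblasts the intervals of the 3 EV libraries overlap. Median depth was 2684, 2611, 2949 and 4737.5 UMIs in microglia, against 2255.5, 2117, 2441 and 1687.5 UMIs in neuroblasts. The 8 genes were above 0 in all classes, so none gives a pure background level, and the part of free RNA was not tested. For astrocytes, at 10.9% in IL-4/C1q EV and 9.10% in IL-1a/TNFa/C1q EV, the intervals of these 2 libraries overlap.

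**Figure D5:**
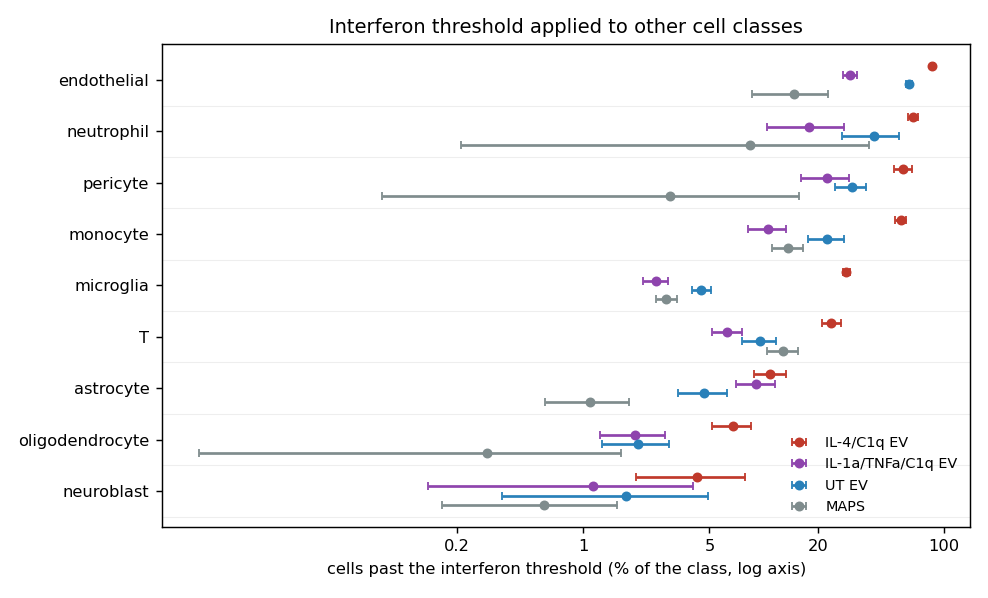
Percentage of cells past the interferon threshold (log axis) by cell class and library, with exact 95% counting intervals. Endothelial cells lie highest, at 85.7% in IL-4/C1q EV, neuroblasts lie lowest in IL-4/C1q EV at 4.25%, and IL-4/C1q EV is rightmost in each class shown.

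ISRE letters were present in more of the promoters of genes called higher, given here as a description of the list. Of the 65 genes higher without marked cells 52 matched the promoter table, and 19 of them (36.5%) held the ISRE core letters on either strand. Of the 152 matched among the 198 higher genes 34 (22.4%) held it, and of the 66 matched among the 90 lower genes 4 (6.06%). Over all 8122 measured genes with an entry the share was 3.88%. The interferon-gamma activated site, written TTC, any 3 bases, GAA, and the same on both strands, was in 17.3% of the 52 genes and 7.82% of all measured genes. Among those with the ISRE letters were Ifi206, Ifi211, Ifit3b, Cxcl10, Gbp2 and Phf11a, while Ifi47, Cxcl13 and Tnfsf10 held no such letters in this window.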

How the data were processed

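Raw UMI counts of 55357 genes in single barcodes were deposited for 4 libraries, 1 per group. Per the labels' protocols, the tissue was dissociated with enzymes, red and dead cells were removed, and 10x 3′ v3 libraries were made. Per the file headers the counts come from Cell Ranger 8.0.1. The submitters' processing notes differ, giving Cell Ranger as 7.0.0, and list GRCm39, Seurat 4.1.0 and bcl2fastq 5.0.1. Whether the counts include introns is not given in the sources used here.

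Barcodes stayed in with 500 UMIs or more, 300 genes or more and a mitochondrial share up to 20.0%. Work was done in Python 3.11.15 with pandas 2.3.3, scipy 1.17.1, numpy 2.4.6, matplotlib 3.10.9 and scanpy 1.11.5. Doublets, called per library with scrublet, were kept in the main results, as the rule has it. UMIs were summed per library over interferon-high and other microglia and scaled to counts per 1000000 UMIs. Log2 ratios used a pseudocount of 0.5 UMIs, and list values are medians of the mean over the 4 libraries. Shares carry exact Clopper-Pearson intervals, sums exact Poisson and ratios exact conditional binomial intervals. These cover counting error only, and no test was made.

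Named were the first 15 higher and 8 lower called genes by their smallest absolute log2 ratio over the libraries, up to 4 members of each of 15 lists by mean size, and up to 5 genes on each side between libraries. Genes compared between libraries had at least 100 UMIs over the libraries and 30 in the highest. Mitochondrial, ribosomal protein, haemoglobin, immunoglobulin and sex-linked genes were left out of rankings. The members and lists were chosen with earlier results of these data known. The set without marked cells was chosen after seeing the data, as were the genes named for it, for bins and for cells with 0 UMIs, and Irf9, Zbp1 and Cst3. The call rule was run on simulated counts with known folds. The simulation held no selection of cells on interferon genes and no RNA of other cells, so it lends no support to the calls above. Promoters came from RefSeq on GRCm38.p6, matched by symbol, and no coordinate of the files was used. Some genes that the rule names are not reported here.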

Additional observations from a re-analysis of the deposited data

Results flagged for a closer look

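Results that ran in opposite directions between libraries, each with a counting interval beyond 1.5-fold, numbered 73 genes over all measured, 5 of them in the gene lists. The differences between libraries were not tested. Spp1, a secreted phosphoprotein of activated microglia, was at 0.508 of the other microglia's level in interferon-high cells of IL-4/C1q EV and 1.788-fold higher in those of MAPS. Cst7 was at 0.606 in IL-4/C1q EV and 2.123-fold higher in MAPS. Apoe, a lipid carrier, was at 0.656 in UT EV and 1.63-fold higher in MAPS. The cell cycle gene Cenpf was 2.569-fold higher in IL-4/C1q EV and at 0.234 in MAPS, and without marked cells it was at 0.395 and 0.0738. Pclaf, a replication factor, was 2.819-fold higher in UT EV and at 0.236 in MAPS. Without marked cells Spp1 was at 0.741 in IL-4/C1q EV and 3.93 in MAPS, Cst7 at 0.782 and 2.89 in the same libraries, Apoe at 0.936 in UT EV and 1.82 in MAPS, and Pclaf had 0 UMIs in UT EV members and was at 0.131 in MAPS. None of the 5 genes thus kept ratios beyond 1.5-fold in opposite directions in these pairs of libraries. Of the 73 genes, some outside the lists kept opposite ratios beyond 1.5-fold, and others, such as Camp and Atp1b1, did not. Without marked cells Tmem212 was at 27.6 in IL-1a/TNFa/C1q EV, against 0 to 0.209 in the other libraries. Ccdc153 was at 16.6 there against 0.104 to 0.293, and Mt3 at 5.87 against 0.316 to 0.465. The set without marked cells did not screen for astrocyte or choroid plexus markers, and the part of such RNA was not tested. Markers of 2 other classes also ran in opposite directions. Choroid plexus markers were at 0.262 in IL-4/C1q EV, 2.899-fold higher in UT EV and at 0.207 in MAPS. Pericyte markers were at 0.213 in IL-1a/TNFa/C1q EV, where Kcnj8 and Abcc9 had 0 UMIs, and 7.199-fold higher in MAPS. In MAPS 1.415% of members held 3 or more pericyte UMIs, and Rgs5 gave 65.7% of these UMIs, so few cells carry that value.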

How the results depend on the processing

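No paired analysis was possible because each group has 1 library and the labels number no replicates. The share of interferon-high cells in IL-4/C1q EV was highest of the 4 libraries under each alternative run. It moved to 31.99% with at least 2 UMIs, 18.55% with at least 5, 11.53% at 0.2% of UMIs, 43.14% thinned to 3000 UMIs, 32.9% thinned to 1500 with 2 UMIs, 26.81% with 6 microglia UMIs, 27.3% without called doublets, 23.97% without marked cells, 11.36% without Isg15 and 26.14% with at least 2 of the 8 genes. In the same order of settings, IL-1a/TNFa/C1q EV moved to 2.993%, 1.812%, 1.148%, 4.605% and 3.691%, and to 1.003% without Isg15 and 1.99% with 2 genes. UT EV moved to 3.408% with at least 5 UMIs, 1.904% at 0.2%, 8.33% and 6.132% thinned, 3.914% with 6 microglia UMIs, 3.871% without doublets, 2.647% without marked cells, 1.523% without Isg15 and 3.716% with 2 genes. MAPS moved to 1.253% at 0.2%, 3.931% and 3.713% thinned and 2.384% without Isg15. MAPS was below IL-1a/TNFa/C1q EV when thinned to 3000 UMIs and above it at their own depth, and above UT EV without Isg15 and, with overlapping intervals, without marked cells. The ratio of IL-4/C1q EV over UT EV moved to 5.444 with at least 5 UMIs, 5.178 and 5.365 thinned, 9.057 without marked cells and 7.459 without Isg15.

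The count of higher genes moved to 126 with 1000 UMIs per gene, 88 at a fold of 2, and 65 without marked cells, with or without weighting to equal depth. The count of lower genes moved to 163 with 200 UMIs per gene, 35 at a fold of 2, 150 without marked cells and 163 with depth weighting in addition. Leaving out 1 library in turn gave 211 to 373 higher genes, the highest without MAPS, and 102 to 206 lower genes, with 199 without IL-4/C1q EV, 206 without IL-1a/TNFa/C1q EV and 144 without UT EV, since fewer libraries then have to pass. Without marked cells 2 of the 23 leading genes turned, Adgrf5 to a mean log2 ratio of -0.36 and Slc9a3r2 to -0.019, and so did 4 list medians: receptors and kinases to -0.010, disease-associated genes to 0.22 (from -0.08), immediate early genes to -0.16 (from 0.06) and cell cycle genes to -0.10 (from 0.03). The median over all genes turned as well, from 0.0035 to -0.08. Receptors and kinases lay above it in both sets. The cause of these changes was not tested. Levels in IL-1a/TNFa/C1q EV, UT EV and MAPS rest on 156 to 249 cells each, which limits genes at a few CPM.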
